A study of Mus musculus with 6 samples.

Results

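The 33 genes described here encode the enzymes that break fatty acids down by oxidation in mitochondria and peroxisomes, together with the ligases that activate them. They were taken by gene symbol, with no measured value used, and each symbol stood on 1 of the 25509 gene rows of the count table. Of the 33, 22 were assigned to the mitochondrial route, 7 to the peroxisomal route and 4 are acyl-CoA synthetases that activate fatty acids for either. Each gene was placed in 1 group only, also where its enzyme may work in both compartments. The low-count filter kept 32 of them among 12827 tested genes, and the peroxisomal thiolase gene Acaa1b was the member it removed.

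The libraries came from macrophages of C57BL/6 mice, either wild type (WT) or Tg-ACE, a mouse described in the series title as overexpressing angiotensin-converting enzyme (ACE). Cells were washed from the peritoneal cavity 4 days after an injection of thioglycollate, an irritant broth that draws macrophages in. They were purified on a Percoll gradient and cultured for 2 hours, and the adherent cells were taken for RNA. Age, sex and the promoter driving the transgene are not given in the sources used here, and nothing says whether a library came from 1 animal or a pool. The 3 WT and 3 Tg-ACE libraries also carry 1 of 2 experiment codes in their labels: replicate 1 of each genotype is Exp-156 (2 libraries), and replicates 2 and 3 are Exp-156b (4 libraries). What separates the codes is not stated, and because nothing names the replicates as separate animals, the p-values measure only the spread between these libraries.

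Fatty acids enter oxidation as acyl-CoA thioesters, made by acyl-CoA synthetases. Long chains cross into mitochondria as carnitine esters and are then shortened through repeated rounds of dehydrogenation, hydration, a second dehydrogenation and thiolysis. Peroxisomes run a parallel cycle on very long and branched chains and pass the shortened products on, and macrophages are known to draw on fatty acid oxidation more in some activation states than in others.

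The libraries held 24294258 to 28120394 expected counts each. Levels are given in CPM, a gene's share of its library's scaled total, and a count of 3, the level treated as the floor, equals 0.107 to 0.123 CPM, a limit that covers counting error only. The transgene's own gene, Ace, stood at 16.7, 7.60 and 11.6 CPM in WT replicates 1 to 3 and at 100.6, 25.6 and 31.8 CPM in the Tg-ACE replicates. Every Tg-ACE library was above every WT library, though the fitted log2 fold change of 2.14 (SE 0.60) did not pass the adjusted test. Ace was also lower in Exp-156b than in Exp-156 (log2 -1.39, SE 0.23, adjusted p 0.00258, edgeR). With the code as a term its genotype value was 1.95 (SE 0.23, unadjusted p 4.25e-05, adjusted p 0.136, edgeR). The 6 macrophage markers summed to between 17938 and 21853 CPM in every library, most of it Lyz2, and some of the others differed between the codes, as given with the other markers. Of the 5 adipocyte markers, which would bring fatty acid enzymes of their own, Adipoq, Plin1, Cidec and Cfd were at or under the floor in all 6 libraries, and Ucp1 had 2 to 6 counts.

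The question put by the design is whether Tg-ACE macrophages differ from WT, and for these genes no difference passed the test. With edgeR's quasi-likelihood test, 0 of 32 members had an adjusted p under 0.05, against 0% of the 12827 genes tested. At an unadjusted p under 0.05 the same fit held 0 members and 126 genes (0.982%). That fit left out the experiment code, so differences between the codes add to the spread it tests against. With the code as a term, 5 members and 6.48% of genes had an unadjusted p under 0.05 (edgeR). No member passed the adjusted test there, and 0.0156% of genes did. DESeq2 called 9 genes, limma-voom 1 and edgeR with the replicate number as a block 2, of which 0 were members. Log2 fold changes of the members in the fit without the code, Tg-ACE minus WT, ran from -0.11 to 0.32. Their median was 0.06, where the median of all tested genes was -0.01. They were above 0 for 24 of the 32 members and for 48.1% of all genes. By route, 20 of the 22 mitochondrial members (median 0.10), 4 of the 6 tested peroxisomal members (median 0.07) and 0 of the 4 synthetases (median -0.07) had a value above 0. These are counts of small values, none of which passed the test. Fewer cells of a type and less RNA per cell cannot be told apart in such bulk RNA.

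The experiment codes separated the same genes far more. With genotype held in the fit, 18 of the 32 members differed between Exp-156b and Exp-156 at an adjusted p under 0.05 (edgeR), 7 of them higher in Exp-156b and 11 lower. The background was high: 42.9% of all tested genes passed, 20.0% higher and 22.9% lower, so the members' shares are to be read against those. At an unadjusted p under 0.05 the counts were 21 members and 51.5% of genes. The libraries of the codes did not overlap for 7 members higher in Exp-156b and 17 lower, where 28.9% and 30.9% of all genes did so. The median log2 fold change, Exp-156b minus Exp-156, was -0.13 over the members and -0.00 over all tested genes. With upper-quartile scaling the split of member calls was 8 higher and 6 lower. The synthetases were all among the genes higher in Exp-156b, while the 3 carnitine shuttle genes and both other carnitine acyltransferases were all among the lower ones. Without WT replicate 1 the calls were 3 higher and 4 lower, and without Tg-ACE replicate 1 they were 5 higher and 4 lower. Each of 3 other libraries, WT replicates 2 and 3 and Tg-ACE replicate 3, brought the lower calls to 7 when it was the one left out.

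Other features of the libraries moved with the code. Xist, transcribed from the inactive X chromosome of females, measured 0.409 to 0.527 CPM in the Exp-156 libraries but 327.3 to 454.5 CPM in the Exp-156b libraries, and Ddx3y, on the Y chromosome, measured 48.0 to 51.6 CPM in the first and at most 0.107 CPM in the second. Summed markers of several other cell types were higher in Exp-156. The 6 neutrophil markers summed to 148 to 475 CPM against 11.1 to 14.2, mostly through Retnlg, with Ly6g at or under the floor in every library. S100a8 overlapped between the codes, and Mpo was highest in an Exp-156b library, Tg-ACE replicate 2, at 1.43 CPM. The 4 eosinophil markers summed to 88.1 to 222 CPM against 8.66 to 18.4, mostly through Ccr3 and Siglecf, with Epx and Prg2 at most 0.450 CPM. The 4 mast cell markers summed to 55.0 to 87.4 against 12.3 to 25.5. The 3 dendritic cell markers summed to 19.7 to 22.1 against 1.47 to 4.03, and the 4 T and NK cell markers to 4.64 to 6.46 against 0.452 to 1.85. The sum of the 4 mesothelial and fibroblast markers went the other way, at 62.6 to 72.5 CPM against 115 to 221, mostly through Col1a1 and Dcn. Upk3b was also higher in Exp-156b (log2 1.98, adjusted p 0.00806, edgeR), but Msln had a value below 0 and did not pass (log2 -0.49, adjusted p 0.333, edgeR). The 4 B cell markers overlapped at 89.1 to 114 against 50.5 to 116. Within Exp-156 the neutrophil markers summed to 475 CPM in WT and 148 CPM in Tg-ACE, and the eosinophil markers to 222 and 88.1 CPM. The mast cell sums were 87.4 and 55.0 CPM, and the dendritic, T and NK and B cell sums were also higher in WT. The mesothelial and fibroblast sum was higher in Tg-ACE. Macrophage markers moved with the code too. Itgam was at 1641 and 1715 CPM in Exp-156 and 391 to 627 CPM in Exp-156b (log2 -1.78, adjusted p 0.000134, edgeR), Adgre1 at 632 and 646 against 214 to 351 CPM (log2 -1.22, adjusted p 0.00105) and Csf1r at 729 and 794 against 547 to 589 CPM (log2 -0.42, adjusted p 0.00279), while Cd68, Lyz2 and Mertk did not pass. The large resident macrophage markers went opposite ways, Gata6 from 5.32 and 6.79 CPM to 12.6 to 17.8 CPM (log2 1.41, adjusted p 0.000947) and Timd4 from 4.62 and 9.63 CPM to 0.0795 to 0.604 CPM (adjusted p 0.000571). Transcripts of the mitochondrial genome made up 1.38% to 1.47% of counts in Exp-156 and 1.87% to 3.20% in Exp-156b. The code, the sex of the cells and these markers cannot be told apart, and the markers' part in the results on the code was not tested.

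**Figure D1:**
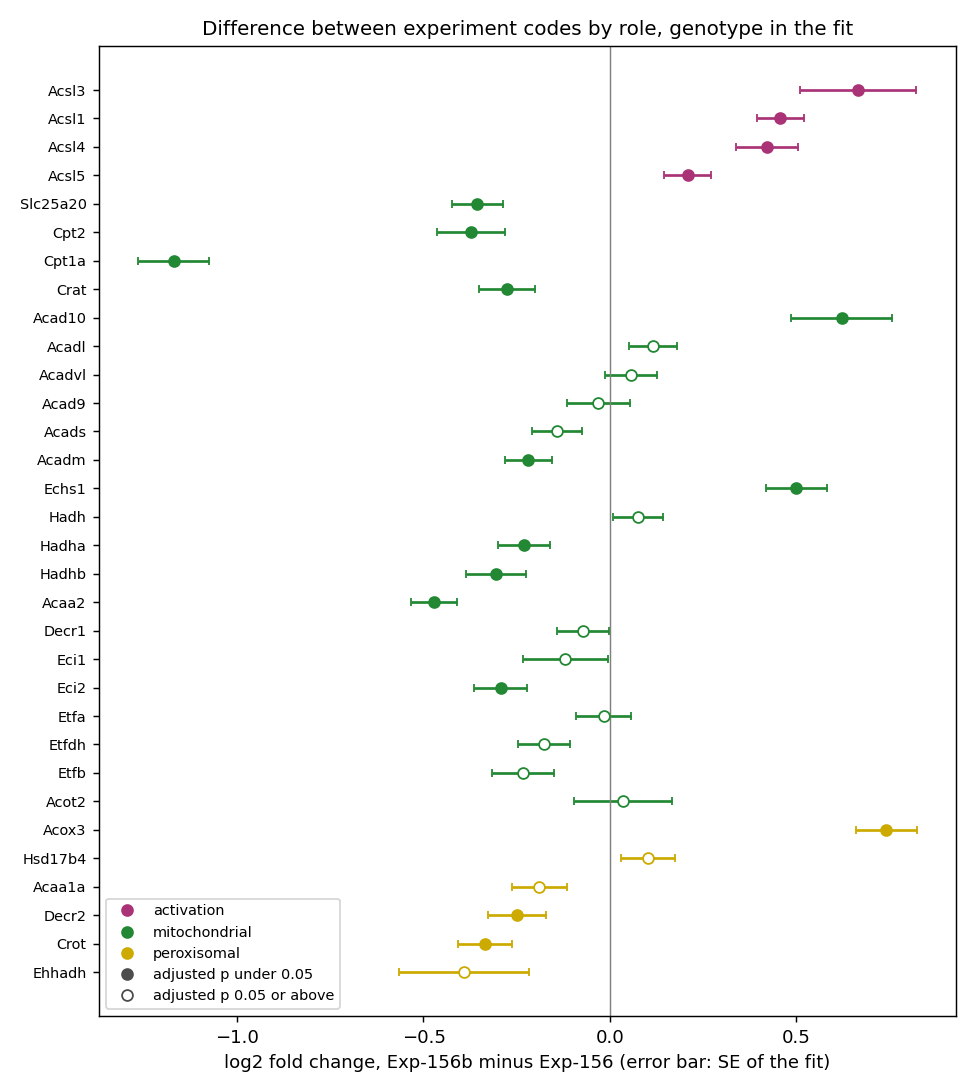
Log2 fold change between the experiment codes (Exp-156b minus Exp-156, x axis) for the 32 tested genes, in rows ordered by role from the synthetases at the top to the peroxisomal enzymes. Points are the edgeR fit with genotype as a term, bars are the SE of the fit, filled points have an adjusted p under 0.05, and colours give the route. All 4 synthetases lie to the right of 0, and Cpt1a lies farthest to the left at -1.17.

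The acyl-CoA synthetases, which join a free fatty acid to coenzyme A, were higher in Exp-156b in all 4 cases, and none passed the test between genotypes. Acsl1, a long-chain synthetase of the outer mitochondrial membrane and endoplasmic reticulum (chr8:46471037-46536051, GRCm38), measured 44.4, 60.7 and 59.1 CPM in WT replicates 1 to 3 and 42.7, 60.2 and 59.0 CPM in the Tg-ACE replicates. Both Exp-156 libraries were low and the 4 Exp-156b libraries stood within about 2 CPM of each other, a 1.37-fold difference (log2 0.46, SE 0.06, adjusted p 0.00123 by edgeR). Acsl3, a lipid droplet synthetase, was at 5.81, 10.6 and 8.59 CPM in WT and at 5.73, 7.89 and 9.58 CPM in Tg-ACE. It was 1.59-fold higher in Exp-156b (log2 0.67, SE 0.16, adjusted p 0.0114, edgeR), and 5.60% of its exon bases are shared on the same strand with Utp14b. Acsl4, which prefers arachidonic acid and lies on the X chromosome, gave 67.6, 102.6 and 95.4 CPM in WT and 71.3, 90.4 and 84.6 CPM in Tg-ACE. Its 2 Exp-156 libraries were again the lowest, by 1.34-fold (log2 0.42, SE 0.08, adjusted p 0.00550, edgeR). Acsl5, a mitochondrial long-chain synthetase, had the smallest fold difference of the 4, with 120.4 and 119.5 CPM in Exp-156 and 134.3 to 142.2 CPM in Exp-156b (1.16-fold, adjusted p 0.0304, edgeR). The Acsl4 call was lost without WT replicate 1, the Acsl3 call without replicate 1 of either genotype, and Acsl5 was called in 5 of 10 alternatives. Between genotypes the fitted log2 fold changes of the 4 synthetases ran from -0.11 to -0.02, smaller than their SE in each case in the fit without the code. With the code as a term they ran from -0.10 to -0.02, and that of Acsl4 (-0.094, SE 0.077) was larger than its SE.

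The carnitine shuttle moves long acyl chains across the mitochondrial membranes, and its 3 genes were all lower in Exp-156b. Cpt1a encodes carnitine palmitoyltransferase 1A, the outer-membrane enzyme that commits long chains to mitochondrial oxidation. It lies at chr19:3322334-3385733 on the plus strand of GRCm38 and had the largest difference of any member. Its level was 213, 110.0 and 110.0 CPM in WT replicates 1 to 3 and 279, 107 and 108 CPM in the Tg-ACE replicates. The 4 Exp-156b libraries were nearly identical at 109 ± 1.57 CPM (SD, n = 4), and both Exp-156 libraries stood far above them at 246 ± 46.9 CPM (SD, n = 2). Exp-156 was 2.26-fold higher, a log2 fold change of -1.17 for Exp-156b (SE 0.09, adjusted p 0.000108, edgeR). Within Exp-156 the single Tg-ACE library exceeded the single WT library by 0.39 in log2 CPM, and within Exp-156b the difference was -0.03. The genotype by experiment term was -0.43 (SE 0.11, unadjusted p 0.00816, adjusted p 0.646, edgeR), the smallest p of any member for this term, which did not pass after adjustment. At an unadjusted p under 0.05 this term held 1 member and 7.65% of all genes, and 0 members and 0% of genes passed the adjusted test. Over all 6 libraries the genotype means overlapped, at 144 ± 59.4 CPM in WT and 165 ± 99.2 CPM in Tg-ACE (SD, n = 3 each; log2 0.19, SE 0.47).

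Slc25a20, the carnitine-acylcarnitine carrier of the inner membrane (chr9:108662088-108684641), gave the largest genotype value of the 32 members. WT replicates measured 27.6, 21.7 and 22.6 CPM and Tg-ACE replicates 35.5, 27.1 and 27.0 CPM, or 24.0 ± 3.19 against 29.9 ± 4.86 CPM (SD, n = 3 each). Within each code every Tg-ACE library lay above every WT library, by 0.36 in log2 CPM in Exp-156 and 0.29 in Exp-156b, but over all libraries WT replicate 1 overlapped the Tg-ACE range. The fitted log2 fold change of 0.32 (SE 0.16) had an unadjusted p of 0.0908 by edgeR and an adjusted p that rounds to 1. With the code as a term it was 0.31 (SE 0.07, unadjusted p 0.00155, adjusted p 0.511, edgeR). In that fit 5 members and 6.48% of all genes had an unadjusted p under 0.05, and 0.0156% of genes, no member among them, passed the adjusted test. Between the codes Slc25a20 was 1.28-fold higher in Exp-156 (log2 -0.36, SE 0.07, adjusted p 0.00480, edgeR). Cpt2, which returns the acyl group to coenzyme A on the matrix side (chr4:107903981-107923610), measured 20.5, 14.4 and 14.8 CPM in WT and 18.6, 15.8 and 15.4 CPM in Tg-ACE. Both Exp-156 libraries were the highest, by 1.29-fold (log2 -0.37, SE 0.09, adjusted p 0.0140, edgeR), a call lost without WT replicate 1, and the genotype value was 0.00.

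The promoters of Cpt1a and Slc25a20, the shuttle genes called lower in Exp-156b under all 10 alternatives, are shown from RefSeq (GRCm38.p6, 250 bases before to 50 after the start, plus strand, chr19:3323051-3323350 and chr9:108661886-108662185). Capitals mark the GC box GGGCGG, the CCAAT box and the nuclear receptor half-site AGGTCA on either strand.
Cpt1a: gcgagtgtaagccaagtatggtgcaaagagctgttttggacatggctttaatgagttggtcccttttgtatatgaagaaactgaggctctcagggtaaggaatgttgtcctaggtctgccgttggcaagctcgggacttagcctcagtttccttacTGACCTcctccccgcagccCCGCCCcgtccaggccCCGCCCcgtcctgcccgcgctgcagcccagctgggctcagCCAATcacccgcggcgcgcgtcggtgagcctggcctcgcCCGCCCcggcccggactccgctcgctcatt
Slc25a20: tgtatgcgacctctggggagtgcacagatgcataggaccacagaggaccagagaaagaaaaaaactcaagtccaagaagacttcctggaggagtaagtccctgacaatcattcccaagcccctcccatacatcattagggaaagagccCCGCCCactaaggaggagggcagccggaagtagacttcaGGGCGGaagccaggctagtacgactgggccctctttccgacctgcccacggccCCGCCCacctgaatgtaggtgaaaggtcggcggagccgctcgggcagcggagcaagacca
Cpt1a held 3 GC boxes, 1 CCAAT box and 1 half-site, and Slc25a20 held 3 GC boxes alone. Of 28 members with a promoter in the table, 21 held the GC box, 14 the CCAAT box and 4 the half-site (Acadm, Acadvl, Cpt1a and Echs1), where 35.7%, 37.4% and 16.3% of all 32851 promoters did. A direct repeat of AGGTCA with 1 base between the copies (0.0396% of all promoters), the extended half-site TCAAGGTCA (0.423%) and the E-box TCACGTGA (0.974%) were in no member's window, and the NRF1 element, GCGCA followed directly by TGCGC (0.971%), was in those of Acad10 and Etfdh. Both strands were searched, the direct repeat and the extended half-site contain AGGTCA, and a match of letters is a description only.

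**Figure D2:**
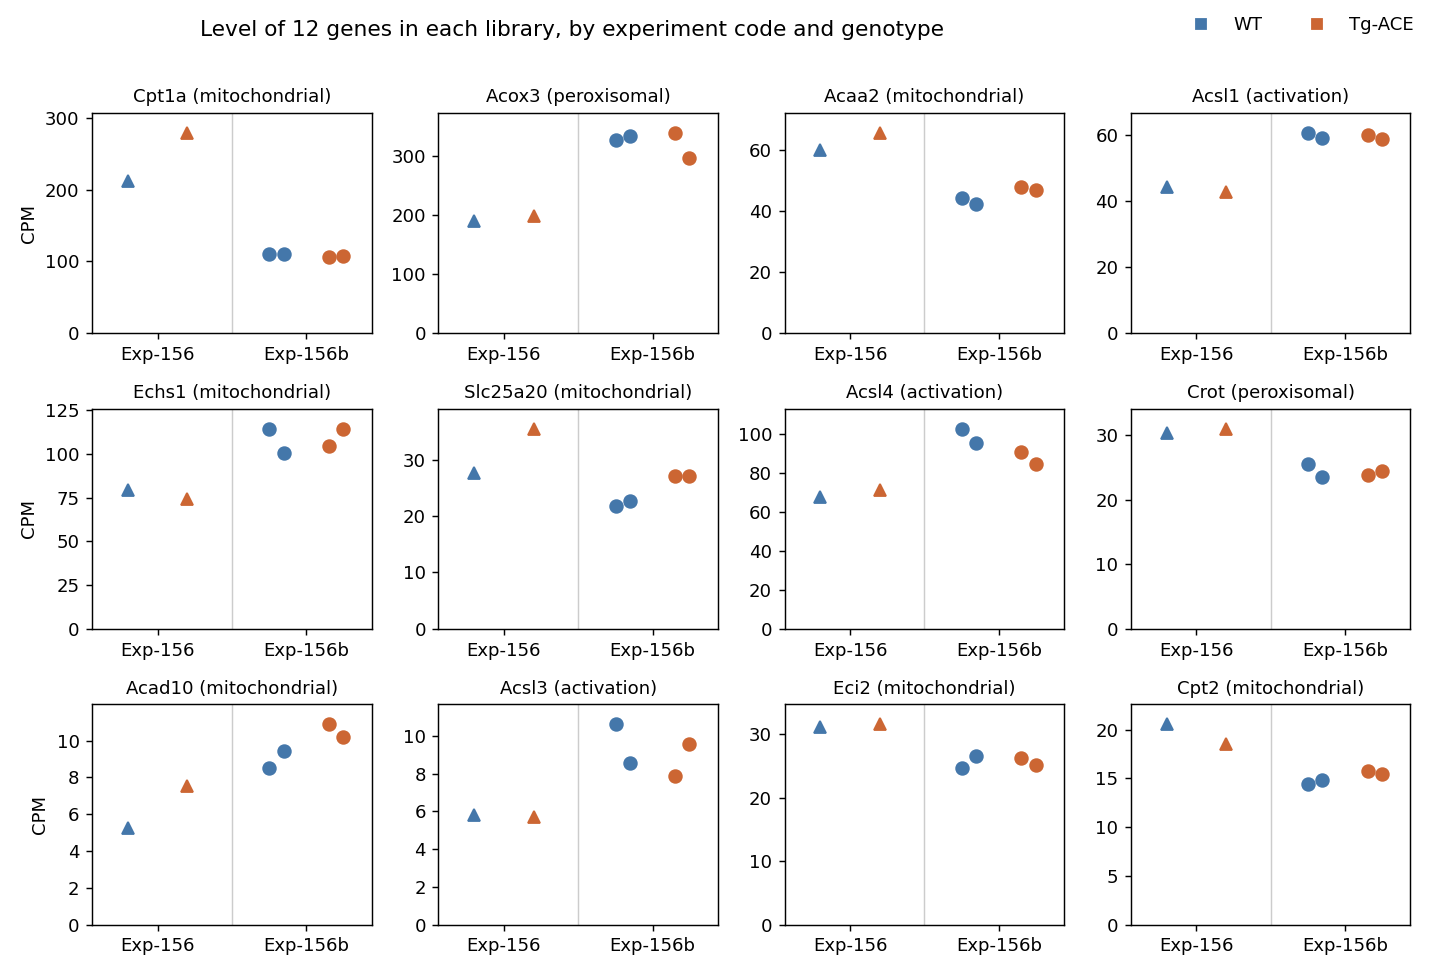
Level in CPM (y axis, from 0) of the 12 genes with the smallest p between the experiment codes, in each of the 6 libraries. Triangles are Exp-156, circles Exp-156b, blue WT and orange Tg-ACE, and each point is 1 library. Cpt1a measured 213 and 279 CPM in Exp-156 against 107 to 110.0 CPM in Exp-156b, and Acox3 the other way round at 191 and 198 CPM against 297 to 340 CPM.

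The other carnitine acyltransferases act on shorter chains, and both were lower in Exp-156b. Crat, carnitine acetyltransferase, which buffers acetyl-CoA in the matrix, measured 104, 79.6 and 86.2 CPM in WT and 113, 102 and 92.2 CPM in Tg-ACE. The genotype means were 90.0 ± 12.7 and 102 ± 10.5 CPM (SD, n = 3 each), overlapping over all libraries, with a log2 fold change of 0.19 (SE 0.14, unadjusted p 0.216, edgeR). Within each code its Tg-ACE libraries lay above the WT ones, and with the code as a term the value was 0.19 (SE 0.07, unadjusted p 0.0280, adjusted p 0.761, edgeR). Its 1.21-fold excess in Exp-156 had an adjusted p of 0.0195 (edgeR) and was called in 4 of 10 alternatives. Of Crat exon bases, 7.63% are covered on the opposite strand by Gm16323, with the same limit on strand as for Acsl1. Crot, the peroxisomal carnitine octanoyltransferase that exports medium chains, measured 30.4, 25.6 and 23.5 CPM in WT and 31.0, 23.9 and 24.4 CPM in Tg-ACE. The 2 Exp-156 libraries lay 1.26-fold above the others (log2 -0.34, SE 0.07, adjusted p 0.00801, edgeR), a call lost without Tg-ACE replicate 1, and the genotypes overlapped.

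The 6 mitochondrial acyl-CoA dehydrogenases, which carry out the first step of each round, had 1 gene called higher in Exp-156b, 1 called lower and 4 that did not pass. Acadvl acts on very long chains (chr11:70010183-70015411, minus strand) and was the single member whose genotypes did not overlap, higher in Tg-ACE in every library, as were 2.38% of all genes. No member was lower in every Tg-ACE library, as 2.53% of genes were. WT measured 52.5, 51.0 and 52.1 CPM and Tg-ACE 54.2, 58.8 and 60.7 CPM, or 51.9 ± 0.778 against 57.9 ± 3.32 CPM (SD, n = 3 each). The log2 fold change of 0.16 (SE 0.08) had an unadjusted p of 0.0893 by edgeR, and the exact two-sided permutation test gave 0.1, the smallest value that 3 against 3 allows. Of its exon bases, 42.9% are covered by Dvl2 on the opposite strand, and since the sources used here do not say whether strand was used in counting, reads of the 2 genes may not have been kept apart. Dvl2 itself measured 36.5, 28.3 and 22.3 CPM in WT and 34.6, 21.1 and 24.3 CPM in Tg-ACE, and its part in the Acadvl level was not tested.

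Acadl, the long-chain dehydrogenase (chr1:66830839-66863277), had the highest level per exon length of all members and measured 127, 134 and 144 CPM in WT and 141, 152 and 151 CPM in Tg-ACE. The means of 135 ± 8.23 and 148 ± 6.14 CPM (SD, n = 3 each) differed by a log2 of 0.13 (SE 0.09, unadjusted p 0.175, edgeR), and WT replicate 3 lay above the lowest Tg-ACE library. Acadm, for medium chains, measured 61.9 and 60.1 CPM in Exp-156 and 51.6 to 53.7 CPM in Exp-156b (log2 -0.22, SE 0.06, adjusted p 0.0255, edgeR; called in 2 of 10 alternatives). Acads, for short chains, and Acad9, a dehydrogenase also needed for complex I assembly, gave log2 values of -0.14 and -0.03 between the codes and did not pass. Acad10, a less studied family member, rose with Exp-156b: 5.24, 8.49 and 9.42 CPM in WT and 7.52, 10.9 and 10.2 CPM in Tg-ACE. Its Exp-156 libraries were the lowest, by 1.53-fold (log2 0.62, SE 0.13, adjusted p 0.00808, edgeR), and without WT replicate 1 the call was lost. Of the 75-base windows of Acad10 transcripts, 14.2% occur also in the neighbouring Acad12, whose level was lower in Exp-156b (log2 -0.60, adjusted p 0.00821, edgeR). The sum of the pair measured 20.7, 17.1 and 19.1 CPM in WT and 21.4, 20.4 and 21.3 CPM in Tg-ACE. The division of shared reads is a limit on both levels, and its part in these calls was not tested.

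The later steps of the mitochondrial round split: Echs1 was higher in Exp-156b, Hadha, Hadhb and Acaa2 were lower and Hadh did not pass. Hadha and Hadhb encode the 2 subunits of the trifunctional protein of the inner membrane, which runs the last steps on long chains. They lie head to head at chr5:30118304-30155162 (minus) and chr5:30155248-30184593 (plus), with annotated starts 86 bases apart. Hadha measured 165, 132 and 144 CPM in WT and 180.1, 162.0 and 149.8 CPM in Tg-ACE. Hadhb measured 88.5, 66.9 and 78.3 CPM in WT and 101.7, 84.3 and 78.2 CPM in Tg-ACE. In both genes Exp-156 was the higher code, by 1.17-fold for Hadha (log2 -0.23, SE 0.07, adjusted p 0.0317, edgeR) and 1.24-fold for Hadhb (log2 -0.30, SE 0.08, adjusted p 0.0190, edgeR). These calls were kept in 2 and 6 of 10 alternatives. Genotype values were 0.16 (SE 0.12) for Hadha and 0.18 (SE 0.15) for Hadhb, with overlapping libraries. Of the Hadhb windows, 51.0% also occur in the annotated genes Gm13910 and Gm9108. Neither symbol has a row in the count table. How such reads were counted is not known, and the Hadhb level is uncertain to that extent. The Hadhb promoter is shown because the window spans the space between the 2 starts (RefSeq GRCm38.p6, plus strand, chr5:30155003-30155302, GC boxes in capitals).
Hadhb: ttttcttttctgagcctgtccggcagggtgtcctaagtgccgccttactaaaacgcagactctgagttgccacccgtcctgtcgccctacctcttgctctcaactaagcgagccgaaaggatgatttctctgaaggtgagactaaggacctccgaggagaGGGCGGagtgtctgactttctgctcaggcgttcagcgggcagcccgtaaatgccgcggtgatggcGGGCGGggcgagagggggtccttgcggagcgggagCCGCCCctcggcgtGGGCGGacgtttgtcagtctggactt
Its 300 bases held 4 GC boxes, no CCAAT box and no half-site.

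Echs1, the short-chain enoyl-CoA hydratase (chr7:140105710-140116476), measured 79.2, 114.3 and 100.6 CPM in WT and 74.3, 104.7 and 114.4 CPM in Tg-ACE. Its 2 lowest libraries were those of Exp-156, 1.41-fold under the others (log2 0.50, SE 0.08, adjusted p 0.00247, edgeR), while the genotype value was -0.00. Acaa2, the matrix thiolase that releases acetyl-CoA, went the opposite way, with 60.0, 44.1 and 42.3 CPM in WT and 65.4, 47.7 and 46.8 CPM in Tg-ACE. It was 1.39-fold higher in Exp-156 (log2 -0.47, SE 0.06, adjusted p 0.000919, edgeR), and within each code the Tg-ACE libraries lay above the WT ones, though the fitted genotype value of 0.13 did not pass. Hadh, the short-chain 3-hydroxyacyl-CoA dehydrogenase, stayed between 37.8 and 42.1 CPM in all 6 libraries.

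Among the enzymes for unsaturated chains, Eci2, an enoyl-CoA isomerase, and Decr2, the peroxisomal dienoyl-CoA reductase, were lower in Exp-156b, and Eci1, a mitochondrial isomerase, and Decr1, the mitochondrial reductase, did not pass. Eci2 measured 31.2, 24.6 and 26.5 CPM in WT and 31.5, 26.2 and 25.1 CPM in Tg-ACE, 1.22-fold higher in Exp-156 (adjusted p 0.0129, edgeR; lost without replicate 1 of either genotype). Decr2 was at 18.9 and 20.1 CPM in Exp-156 and 15.7 to 17.3 CPM in Exp-156b (adjusted p 0.0370, edgeR), a call found in 1 of 10 alternatives. The electron transfer flavoprotein, which takes electrons from the dehydrogenases to the respiratory chain, had 0 of 3 genes called: Etfa gave -0.02, Etfb -0.23 and Etfdh -0.18 between the codes. Etfb shares 52.5% of its windows with Gm45233, on the same strand, a symbol with no row in the count table. How such reads were counted is not known, and the Etfb level is uncertain to that extent. Acot2, a mitochondrial thioesterase, gave 0.03, with 21.2% of its windows shared with Acot1, Acot4 and Acot5.

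The peroxisomal members did not move as a block: of 6 tested, Acox3 was higher in Exp-156b, Crot and Decr2 lower, and Hsd17b4, Acaa1a and Ehhadh did not pass. Acox3, an acyl-CoA oxidase known for branched chains, starts the peroxisomal cycle (chr5:35583040-35615352, plus strand). Its level was 191, 328 and 335 CPM in WT and 198, 340 and 297 CPM in Tg-ACE. Both Exp-156 libraries were low at 194 ± 5.21 CPM (SD, n = 2) and the others high at 325 ± 19.4 CPM (SD, n = 4), a 1.67-fold difference (log2 0.74, SE 0.08, adjusted p 0.000398, edgeR). This was the largest rise of any member and was called under all 10 alternatives, and the genotype value was -0.03 (SE 0.29). Of Acox3 exon bases, 6.08% are covered on the opposite strand by 4931431C16Rik, with the same limit on strand as for Acadvl. Hsd17b4, the D-bifunctional protein of the next 2 steps, was at 107, 106 and 118 CPM in WT and 110, 124 and 118 CPM in Tg-ACE, overlapping on both splits. Ehhadh, the L-bifunctional protein, was low at 5.77, 3.51 and 4.09 CPM in WT and 5.10, 4.70 and 4.32 CPM in Tg-ACE; both Exp-156 values were the highest, but the difference did not pass (log2 -0.39, SE 0.17, adjusted p 0.107, edgeR).

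Peroxisomal thiolase has a pair of genes on mouse chromosome 9, and Acaa1b was above the floor in 1 library only. Acaa1a (chr9:119339676-119350299) measured 113, 97.8 and 89.7 CPM in WT and 109, 98.2 and 105 CPM in Tg-ACE, higher in both Exp-156 libraries without passing the test (log2 -0.19, SE 0.07, adjusted p 0.0758, edgeR). Of its exon bases, 6.57% are covered on the opposite strand by Myd88, itself higher in Exp-156 (75.3 against 44.1 CPM, log2 -0.77), with the same limit on strand as for Acadvl. Acaa1b (chr9:119148023-119157093) had 0, 0 and 4 counts in WT and 1, 0 and 0 counts in Tg-ACE, so no fold is given. The first coding transcripts of the pair are 92.9% identical over 1637 aligned bases, and 20.6% of the 75-base windows of Acaa1a and 28.5% of those of Acaa1b occur in the other gene. The 2 promoters and that of Acox3 are printed to set the expressed thiolase and oxidase beside the copy near the floor (RefSeq GRCm38.p6, 5′ to 3′ on each gene's strand, chr9:119341044-119341343 plus, chr9:119157044-119157343 minus and chr5:35582784-35583083 plus, capitals as before).
Acaa1a: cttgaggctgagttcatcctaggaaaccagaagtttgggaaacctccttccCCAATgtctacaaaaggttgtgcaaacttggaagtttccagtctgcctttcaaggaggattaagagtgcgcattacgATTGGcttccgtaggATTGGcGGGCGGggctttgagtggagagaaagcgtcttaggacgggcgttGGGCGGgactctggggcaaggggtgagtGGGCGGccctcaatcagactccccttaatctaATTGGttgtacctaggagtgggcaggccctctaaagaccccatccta
Acaa1b: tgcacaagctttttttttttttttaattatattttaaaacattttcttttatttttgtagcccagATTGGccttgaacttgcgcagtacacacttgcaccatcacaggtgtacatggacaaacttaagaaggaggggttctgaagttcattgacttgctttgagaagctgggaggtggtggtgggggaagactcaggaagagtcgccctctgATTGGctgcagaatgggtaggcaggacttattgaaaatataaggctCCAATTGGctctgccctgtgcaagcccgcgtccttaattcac
Acox3: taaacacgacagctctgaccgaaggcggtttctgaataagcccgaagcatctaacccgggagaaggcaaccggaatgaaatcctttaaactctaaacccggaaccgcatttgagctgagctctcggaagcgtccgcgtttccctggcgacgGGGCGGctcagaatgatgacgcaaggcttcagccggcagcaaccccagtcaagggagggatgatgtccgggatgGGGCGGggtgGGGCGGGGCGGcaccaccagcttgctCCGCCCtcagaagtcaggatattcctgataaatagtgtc
The windows of Acaa1a and Acaa1b held 4 CCAAT boxes each, overlapping in part in Acaa1b. Acaa1a also held 3 GC boxes and Acox3 held 5, while Acaa1b held none.

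**Figure D3:**
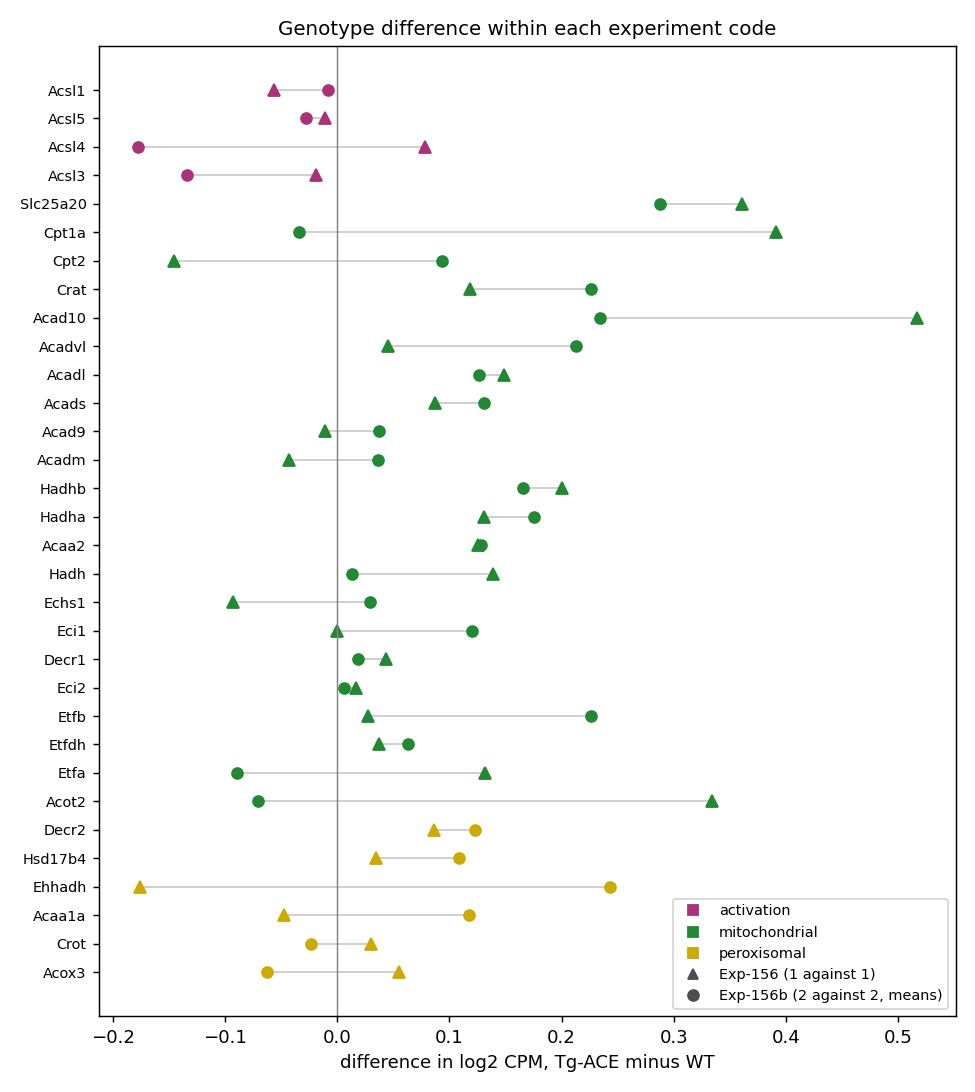
Tg-ACE minus WT difference in log2 CPM (x axis) of the 32 tested genes within Exp-156 (triangles, 1 library against 1) and within Exp-156b (circles, means of 2 libraries against 2), in rows ordered by role and coloured by route. Slc25a20 lies at 0.36 and 0.29, Cpt1a at 0.39 and -0.03, and 17 genes lie above 0 in both codes.

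Set within the codes, the genotype differences of 17 members were above 0 in both Exp-156 and Exp-156b and those of 3 were below 0 in both, where 21.6% of all tested genes were above in both and 24.5% below in both. Of those 17, 15 belong to the mitochondrial route and 2 to the peroxisomal route, and the 3 below 0 are all synthetases (Acsl1, Acsl3 and Acsl5). In 10 members (Slc25a20, Acadl, Acads, Acadvl, Acad10, Hadha, Decr2, Acaa2, Etfb and Crat) every Tg-ACE library lay above every WT library of its own code, as it did for 9.37% of all genes, and in 0 members every one lay below, as for 10.6%, a count made after the values were seen. With the code as a term, the 5 members with an unadjusted p under 0.05 were Slc25a20, Crat, Acad10 (0.33, p 0.0309), Acadvl (0.16, p 0.0443) and Hadha (0.16, p 0.0445), all higher in Tg-ACE and none past adjustment by edgeR. The median difference over members was 0.04 in Exp-156 and 0.08 in Exp-156b, against -0.01 over all genes in each. The Exp-156 values rest on 1 library of each genotype and have no replicate check of their own, so they are given as values only. These libraries also differed in markers of other cell types, and the part of this in the values was not tested.

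Levels of different members can be compared only per length. In CPM per kilobase of merged exons, a scale of level and not of difference, Acadl was highest at 70.6, followed by Etfb at 47.3, Acaa2 at 33.7, Hsd17b4 at 33.4 and Etfa at 33.2. The last 3 lay too close to be ordered. The lowest were Acsl3 at 1.84, Ehhadh at 1.54, Acad10 at 1.42 and Acaa1b at 0.0165. With the length of the longest coding transcript instead, a setting chosen after seeing the data, Acadl stayed first at 73.9, Acox3 came next at 70.8 and Echs1 at 62.9, so the order below Acadl depends on which transcripts are counted.

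**Figure D4:**
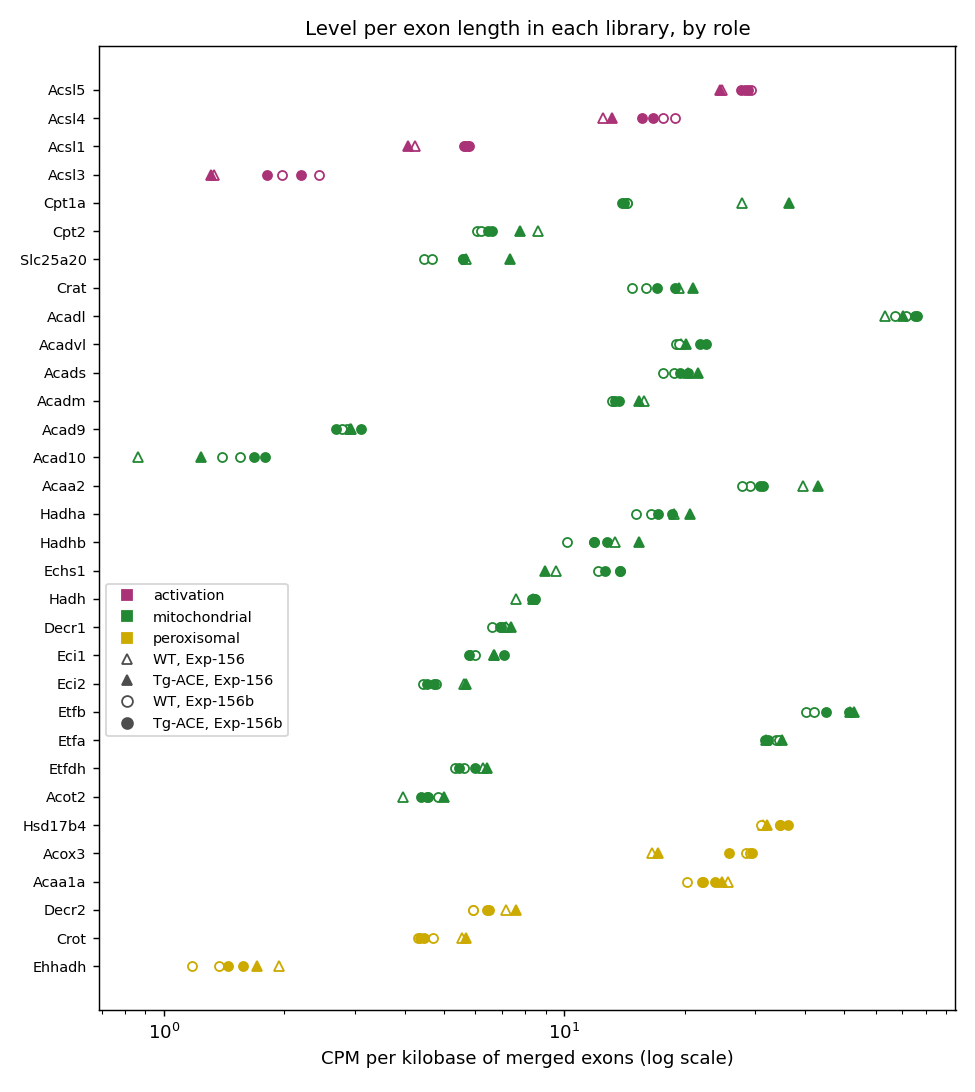
Level of the 32 tested genes in CPM per kilobase of merged exons (x axis, log scale) in each library, in rows ordered by role and coloured by route. Triangles are Exp-156, circles Exp-156b, open symbols WT and filled symbols Tg-ACE. Acadl is highest with a mean of 70.6, and Acad10, Ehhadh and Acsl3 are lowest with means of 1.42 to 1.84.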

How the data were processed

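The 6 poly-A libraries, each read as single 75-base reads per the labels, are the columns of the 1 deposited table, whose values are expected counts with no scaling, per the file header. The submitters' processing notes name STAR 2.5.0, RSEM 1.2.25, mm10 and GRCh38 without their roles. The kit was a stranded one per the labels' protocols, but whether counting used strand is not given in the sources. Expected counts divide reads that fit several transcripts, and 11.0% to 11.4% of values in a library were not whole. All were rounded to whole counts before use. The 92 spike-in rows, with 1 count in all, were left out.

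Under R 4.3.3, the quasi-likelihood test of edgeR 4.0.16 was run after TMM scaling and the filterByExpr filter with Benjamini-Hochberg adjustment over all 12827 kept genes at 0.05, in 3 fits: genotype alone, the experiment code with genotype, and their interaction. Each SE was taken from the log2 fold change and its F value (the change over the root of F). CPM values use TMM-scaled library totals, and differences in log2 CPM a prior count of 2. Lengths, positions and overlaps came from GENCODE M21 (GRCm38), which held 25251 of the 25509 row identifiers, and promoters from RefSeq. DESeq2 1.42.0, limma 3.58.1, other scalings, no filter, leave-one-out fits, the code as a term, a replicate block and Exp-156b alone were tried. The fits were tested on simulated data. No pair of libraries agreed within sampling noise. Same-numbered replicates deviated together (r 0.856, 0.483 and 0.637 for replicates 1, 2 and 3), but with the code removed r was -0.178 and -0.101 for replicates 2 and 3. Pairs of unlike number gave similar values, r 0.539 for WT 2 with Tg-ACE 3 and 0.615 for WT 3 with Tg-ACE 2. With the code removed these were -0.143 and -0.0939.

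The series' design text calls the second group Tg-NKO where the title and sample labels say Tg-ACE, and the labels were followed. The member genes, the lists and the rule for naming genes were chosen with earlier results of these data known. By that rule all members are accounted for by role. Values per library are given for the members with the smallest p in each fit, the members called between the codes (up to 12), the core genes of each route, and others where a role has few members. From each list of other pathway genes, the 2 with the smallest p in each fit are named, except some that are not reported here.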

Additional observations from a re-analysis of the deposited data

Results flagged for a closer look

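Eci1, an enoyl-CoA isomerase of mitochondria, measured 15.1 CPM in Tg-ACE replicate 3, apart from the other 3 Exp-156b libraries, which measured 12.4 and 12.7 CPM in WT and 12.3 CPM in Tg-ACE replicate 2. The gap to the nearest library made up most of the range of the 4 libraries. Of 32 members checked in this way 1 stood out, where chance sets apart about 1 in 20 groups.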

How the results depend on the processing

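Members called by genotype numbered 0 under every alternative run. The genotype count over all genes was 0 and became 1 with no low-count filter (lower), 9 with DESeq2 (3 higher, 6 lower), 1 with limma-voom (lower), 2 with the experiment code as a term (lower), 2 with the replicate block (lower) and 2 in the Exp-156b libraries alone (lower). It ran from 0 to 1 (lower) when 1 library was left out, reaching 1 without Tg-ACE replicate 3. The replicate block changed no other call of a member. The Cpt1a genotype value, not called, turned from 0.19 to -0.035 in Exp-156b alone and ran from -0.43 to 0.59 over the leave-one-out fits. Between the codes, upper-quartile scaling gave 6 members lower in place of 11 and a member median of -0.052. Leaving out 1 library gave 7 to 14 members called in place of 18 (3 to 7 higher, 4 to 8 lower) and 3409 to 5260 genes (1442 to 2382 higher, 1961 to 2889 lower). The Acadvl value between the codes, not called, ran from -0.030 to 0.14. Interaction genes numbered 13 with DESeq2 (11 higher, 2 lower) and 0 to 14 with 1 library left out (0 to 8 higher, 0 to 6 lower), the 14 without WT replicate 3. With Exp-156 down to 1 library, that library is assumed to vary like the others. The median level per length was 11.8 CPM per kilobase with merged exons and 22.8 with the longest coding transcript, an alternative added later. Cpt1a, Slc25a20 and Acaa2 (lower) and Acox3, Acsl1 and Echs1 (higher) were called between the codes in all 10 alternatives. The causes of these changes were not tested. Members under 10 CPM, such as Ehhadh and Acsl3, are limited by depth, and Exp-156 by its 2 libraries.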

Other observations

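Other genes of the pathway were counted on lists chosen with earlier results known. No gene of the 6 lists passed between genotypes in edgeR, where 0% of all genes did. Between the codes, 42.9% of all genes passed, 20.0% higher in Exp-156b and 22.9% lower, and the count on each list is to be read against those shares. The pairs of levels below are the means of Exp-156 and of Exp-156b, in that order. Of 19 other mitochondrial acyl-CoA genes, 4 were higher in Exp-156b and 4 lower: Ivd, the isovaleryl-CoA dehydrogenase of leucine breakdown, was higher (45.2 to 71.9 CPM, adjusted p 0.000368, edgeR), and the acetyl-CoA acetyltransferase Acat1 was lower (29.6 to 18.2 CPM, adjusted p 0.000848). Of 17 tested other peroxisomal genes, 1 was higher and 6 lower, among them the peroxisomal transporter Abcd2 (41.3 to 23.7 CPM, adjusted p 0.00209). Of 16 peroxisome biogenesis genes, 4 were higher and 1 lower, with Pex11a, a peroxisome division factor, at 8.82 and 16.5 CPM (adjusted p 0.00194).

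Of 16 fatty acid supply genes, 7 were higher in Exp-156b and 5 lower, with the fatty acid binding protein Fabp5 at 2556 and 4396 CPM (adjusted p 0.000309, edgeR) and the lysosomal acid lipase Lipa at 1322 and 2194 CPM (adjusted p 0.000484). Among 13 tested regulators 2 were higher and 1 lower. The higher ones were the nuclear receptor Ppard (26.1 and 41.4 CPM, adjusted p 0.000456) and its coactivator Ppargc1a (1.67 and 3.51 CPM, adjusted p 0.0158). Of 17 tricarboxylic acid cycle genes 3 were higher and 0 lower, among them Suclg1, a succinyl-CoA ligase subunit (50.5 and 65.6 CPM, adjusted p 0.00490). Between genotypes, in the fit without the code, the smallest unadjusted p on these lists was 0.0420, for Pex11g (log2 0.42), followed by the coactivator subunit Med1 (log2 -0.29, 0.0504), the peroxisomal reductase Pecr (0.53, 0.0707), Pex2 (-0.19, 0.0827), Mlycd, the malonyl-CoA decarboxylase (0.20, 0.0854), Pparg (0.20, 0.0889), Echdc1 (0.26, 0.0908) and Acacb (0.56, 0.0984). With the code as a term the order changed, with unadjusted p of 0.0127 for Pparg, 0.0201 for Pex11g, 0.0203 for Pecr and 0.0260 for Med1 (edgeR). In that fit the 6 lists, in the order given, held 2, 2, 2, 2, 4 and 0 genes with an unadjusted p under 0.05, where 6.48% of all genes did. None had an adjusted p under 0.05 by edgeR in either fit. Amacr, Pnpla2, Ogdh and Fh1, the other genes the naming rule gave, had log2 values of 0.21, 0.20, 0.16 and 0.09.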
